A study of Mus musculus with 12 samples.

Results

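The subject is the effect of TDP-43 aggregates on SIM-A9 cells, read as 1 term over both drug arms of the experiment. All 12 of the 12 libraries entered, 6 with TDP-43 aggregates against 6 with sham aggregates. Of these, the 3 libraries of C13 with TDP-43 were set beside the 3 of C13 with sham, and the 3 of DMSO with TDP-43 beside the 3 of DMSO with sham. A gene is described only where its log2 fold change had the same sign in the C13 arm and the DMSO arm. That held for 3372 of 7078 tested genes in nascent RNA (47.6%) and 5554 of 11827 in total RNA (47.0%).

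SIM-A9 is a mouse microglial line of the C57BL/6 strain, so all libraries share 1 immortalised cell source, and the labels call the 3 samples of each group biological replicates. Every culture was in serum-free medium and had 10 µM polymyxin B for 1 h, an antibiotic that binds bacterial endotoxin. The drug, 10 µM C13 or its solvent DMSO, followed for 1 h, and C13 is named in the series title as an inhibitor of the kinase MOK. TDP-43 aggregates at 5 µg/mL or sham aggregates were then present for 4 h, and 4-thiouridine at 100 µM marked new RNA in the last 90 min. No culture lacked polymyxin B or 4-thiouridine. Total RNA is every read of a library, and nascent RNA is the reads that the authors counted as carrying the label.

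TDP-43, encoded by Tardbp, is a nuclear RNA-binding protein that controls splicing and forms cytoplasmic aggregates in amyotrophic lateral sclerosis and frontotemporal dementia. Microglia, the macrophages that live in the brain, sense foreign or misplaced material with pattern receptors and cytosolic nucleic acid sensors. Signals from these receptors reach NF-kB, which drives chemokine and cytokine genes, and interferon regulatory factors, which drive type I interferon and interferon-stimulated genes. Factors of the interferon pathway bind the interferon-stimulated response element in promoters, while NF-kB binds kB sites.

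Promoter windows are shown for 4 of the genes on which the results turn, because 3 of them are classical interferon targets and 1, Cxcl2, is a classical NF-kB target. Each is the 250 bases before the gene start in RefSeq (GRCm38.p6), written 5′ to 3′ on the strand of the gene. Capitals mark GAAA, any 2 bases and GAAA, a short form of the interferon-stimulated response element, in the first 3 windows. In the last they mark GGG, any 2 bases and TTTCC, a form of the kB site. Both strands were searched, and matches of 1 form may overlap. The windows are chr12:26456453-26456702 on the minus strand for Rsad2, chr5:92348890-92349139 on the minus strand for Cxcl10, chr4:156200819-156201068 on the minus strand for Isg15 and chr5:90903649-90903898 on the plus strand for Cxcl2.
Rsad2: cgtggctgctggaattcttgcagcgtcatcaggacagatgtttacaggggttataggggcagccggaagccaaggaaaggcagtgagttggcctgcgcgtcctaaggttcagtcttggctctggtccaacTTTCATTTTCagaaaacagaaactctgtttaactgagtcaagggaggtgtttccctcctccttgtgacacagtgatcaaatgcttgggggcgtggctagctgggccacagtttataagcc
Cxcl10: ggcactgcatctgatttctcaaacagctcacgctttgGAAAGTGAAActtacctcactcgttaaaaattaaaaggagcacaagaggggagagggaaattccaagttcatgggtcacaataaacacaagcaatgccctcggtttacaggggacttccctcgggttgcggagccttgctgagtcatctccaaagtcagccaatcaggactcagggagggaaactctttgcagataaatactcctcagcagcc
Isg15: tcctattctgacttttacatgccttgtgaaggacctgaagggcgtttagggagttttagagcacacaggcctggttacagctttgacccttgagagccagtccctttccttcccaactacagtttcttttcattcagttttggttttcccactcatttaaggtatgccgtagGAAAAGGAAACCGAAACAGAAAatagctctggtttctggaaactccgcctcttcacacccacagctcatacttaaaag
Cxcl2: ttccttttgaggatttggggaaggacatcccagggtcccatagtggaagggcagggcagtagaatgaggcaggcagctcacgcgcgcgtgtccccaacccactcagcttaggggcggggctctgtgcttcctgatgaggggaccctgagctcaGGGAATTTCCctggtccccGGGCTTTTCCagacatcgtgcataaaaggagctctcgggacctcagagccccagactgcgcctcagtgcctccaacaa
The match begins 120 bases before the start in Rsad2 and 213 bases before it in Cxcl10. Isg15 has 3 matches, each overlapping its neighbour, beginning 78, 72 and 66 bases before the start, and Cxcl2 has kB matches at 97 and 78 bases. The interferon form was in 821 of 27025 promoter windows of this length (3.04%) and in 18 of the 42 windows found for the 54 interferon-stimulated genes listed (42.9%). The kB form was in 378 of 27025 windows (1.40%) and in 4 of the 12 windows found for the 18 chemokine genes listed (33.3%). The windows of Srd5a3, Ankle1, Dtx3l and Mff held neither form. A match is a description of letters and not of a bound site.

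Depth ran from 17436397 to 41779882 total reads and from 552042 to 2722812 nascent reads per library. DMSO with TDP-43 replicate 3 and C13 with sham replicate 3 lay far from the other libraries on principal component 1 of both tables, on the same side. They were 1 library in each aggregate group and 1 in each drug arm. Reads of mitochondrial ribosomal RNA were 1.29%, 1.63% and 2.52% of total reads (lowest, median and highest) with TDP-43, against 1.17%, 1.65% and 3.7% with sham, and the part of this spread in the results was not tested. Of 27 microglia and myeloid markers, 24 passed the filter on low counts, with Csf1r, the receptor that keeps macrophages alive, at a mean of 162 CPM with TDP-43 and 174 CPM with sham. CPM is the usual depth-normalised count of reads, with library sizes scaled by edgeR's TMM method. Defining markers of resident microglia were scarce, since Tmem119 averaged 0.55 and 0.47 CPM with TDP-43 and sham, P2ry12 4.89 and 2.78 CPM, and Sall1 0.01 CPM in both. Summed markers of fibroblasts ran from 0 to 0.376 CPM with TDP-43 and 0 to 2.11 CPM with sham, those of neurons from 0 to 0.870 CPM and 0 to 4.17 CPM, and those of lymphocytes from 0 to 1.68 CPM and 0 to 1.39 CPM. Summed astrocyte markers (183 to 251 CPM with TDP-43 and 172 to 257 CPM with sham) were mostly Aldoc, endothelial markers (152 to 199.8 CPM and 161 to 206 CPM) mostly Kdr and Flt1, and oligodendrocyte markers (21.7 to 56.0 CPM and 18.8 to 37.3 CPM) mostly Mbp. Gfap, Cdh5 and Mog, which define those cell types, had 0 reads in all libraries.

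Across all genes, little passed the test. In edgeR's quasi-likelihood test with Benjamini-Hochberg adjustment, 1 nascent gene passed at 0.05, Mff, which is 0.0141% of those tested. In total RNA 0 genes passed (0%), and DESeq2 called 3 there, Srd5a3, Rsad2 and Cxcl10. Genes at an unadjusted p under 0.05 with the same sign in both arms numbered 126 higher (1.78%) and 123 lower (1.74%) with TDP-43 in nascent RNA, and 207 higher (1.75%) and 224 lower (1.89%) in total RNA. Whatever their signs, 251 nascent and 434 total genes were at that p, where chance gives 353.9 and 591.35. Of these, 249 and 431 had the same sign in both arms, so the sign rule removed few genes at that p. The values below therefore describe levels. Mff is the only gene called in this test, its call was lost in several of the alternatives given below, and no change is stated as settled. The labels do not say whether cultures held equal numbers of cells, and fewer cells and less RNA per cell cannot be told apart.

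Mff encodes the outer-membrane receptor that recruits the fission protein Drp1 to mitochondria, and its nascent reads were fewer with TDP-43 aggregates. So few were counted there that the gene passed the filter on low counts only through the sham libraries. It had 6, 12 and 6 nascent reads in DMSO with TDP-43 and 6 in each library of C13 with TDP-43. With sham it had 222, 1050 and 258 nascent reads in DMSO and 114, 54 and 12 in C13. No TDP-43 library was above a sham library in CPM, and the closest was C13 with sham replicate 3. The lowest, median and highest levels were 4.86, 7.59 and 11.6 CPM with TDP-43, against 23.8, 188 and 355 CPM with sham. The log2 fold change was -4.36 (SE 0.66, edgeR adjusted p = 0.0198), at -3.99 (SE 0.93) in the C13 arm and -4.72 (SE 0.96) in the DMSO arm.

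Total Mff did not follow. It had 152, 194 and 240.2 CPM with TDP-43 and 169, 203 and 218 CPM with sham, and its log2 fold change was -0.02 (SE 0.15, edgeR adjusted p = 0.998). Nascent reads were 0.0724%, 0.117% and 0.196% of all Mff reads with TDP-43, against 0.127%, 3.65% and 13.4% with sham. A fit that holds nascent and other reads of each gene together, with the library as a term, gave a log2 difference of -4.24 (SE 0.61, edgeR adjusted p = 0.0131), and Mff was the 1 gene of 7078 that it called (0.0141%). This fit used the same nascent counts and the same filter on low counts, so its call is not separate evidence from the nascent call. All 12 nascent counts of Mff are whole multiples of 6, so that the TDP-43 libraries hold 1 or 2 such units and the sham libraries 2 to 175. Divided by 6 with other genes' shared factors also divided, the fold change was -4.28 and nascent Mff no longer passed (edgeR adjusted p = 0.998), while the fit on both kinds of read still called it (edgeR adjusted p = 0.0323). The nascent call was also lost with the replicate number as a block (edgeR adjusted p = 0.0964) and with the total table's library sizes (edgeR adjusted p = 0.0537). It was lost without any 1 of 10 libraries and kept without C13 with sham replicate 2 or 3, with edgeR adjusted p from 0.00178 to 0.201. The call of the fit on both kinds of read was lost without replicate 2 of either TDP-43 group, without replicate 2 of the C13 sham group or without any 1 of the 3 DMSO sham libraries, with edgeR adjusted p from 0.000545 to 0.112 over the 12 libraries. Mff lies at chr1:82724890-82752394 on the plus strand (GRCm38) and overlaps 1 annotated gene on its own strand.

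**Figure D1:**
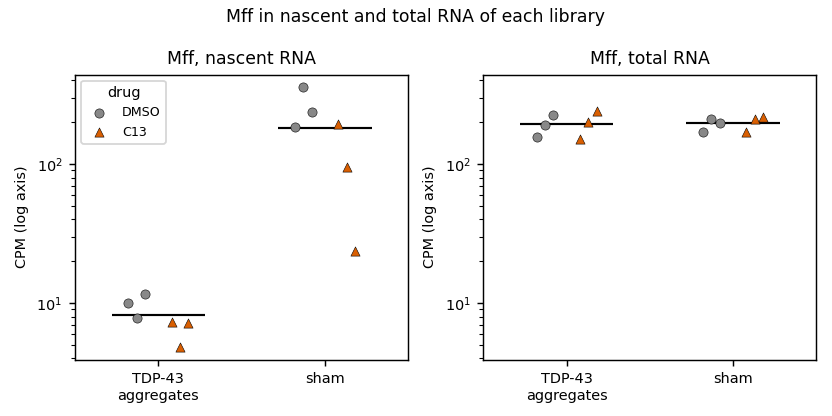
Each point is 1 library, with nascent Mff at left and total Mff at right in CPM on a log axis, circles for DMSO and triangles for C13, and the line is the mean of 6 libraries. Nascent levels with TDP-43 reach 11.6 CPM, below the lowest sham level of 23.8 CPM, while total levels overlap.

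Interferon-stimulated genes are given next, starting with total RNA. Of 47 tested members of the list, 26 were higher with TDP-43 in both arms and 3 lower in both, against 22.3% higher and 24.6% lower among all tested genes. Their median log2 fold change was 0.49, where that of all genes was -0.01. At an unadjusted p under 0.05, 8 were higher and 0 lower in both arms, where all tested genes gave 1.75% and 1.89%. Without the 2 libraries that stood apart, 28 of 48 were higher in both arms and 5 lower.

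Rsad2 encodes viperin, an antiviral enzyme that makes a chain-terminating nucleotide. Total Rsad2 had 146, 120.3 and 95.1 CPM in C13 with TDP-43 and 41.8, 61.3 and 51.9 CPM in C13 with sham. The DMSO arm had 173, 100.0 and 124 CPM with TDP-43 and 96.8, 78.6 and 63.1 CPM with sham. Within each arm every TDP-43 library was above every sham library, which 0.254% of tested genes show in that direction (0.296% show the reverse), and across the arms 1 C13 library with TDP-43 lay just below the highest DMSO sham library. The log2 fold change was 0.98 (SE 0.19, edgeR adjusted p = 0.578).

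Cxcl10, which encodes a chemokine that draws activated T cells, is induced by interferon. Total Cxcl10 had 22.7, 44.1 and 68.9 CPM in C13 with TDP-43 and 13.3, 6.15 and 11.1 CPM in C13 with sham. The DMSO values were 32.1, 27.4 and 48.9 CPM with TDP-43 and 16.7, 19.6 and 20.7 CPM with sham. All 6 TDP-43 libraries were above all 6 sham libraries, as in 16 of 11827 genes (0.135%). The log2 fold change was 1.53 (SE 0.32, edgeR adjusted p = 0.79), and C13 and DMSO gave 2.15 (SE 0.41) and 0.93 (SE 0.39).

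Rtp4, a chaperone of membrane receptors that is induced by interferon, had 8.52, 13.3 and 19.2 CPM with TDP-43 (lowest, median and highest) against 2.12, 3.65 and 12.4 CPM with sham in total RNA. Dtx3l, a ubiquitin ligase that works with Parp9, had 71.3, 87.7 and 135 CPM with TDP-43 and 32.7, 50.4 and 95 CPM with sham. Isg15, which encodes a small protein attached to others like ubiquitin, had 26.8, 43.1 and 72.4 CPM with TDP-43 and 7.03, 27.6 and 43.9 CPM with sham, and its log2 fold change was 1.66 (SE 0.44) in the C13 arm and 0.04 (SE 0.43) in the DMSO arm. The groups overlapped for all 3 genes. The other members at an unadjusted p under 0.05, named after their values were seen, were Parp9, Oas3 and Oasl1, at log2 fold changes of 1.01, 0.65 and 0.49. Rtp4 overlaps another annotated gene on its strand, and all counts of Rtp4 are multiples of 2.

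In nascent RNA, 14 of 25 tested members of the interferon list were higher with TDP-43 in both arms and 2 lower, against 23.6% and 24.1% of all genes, with a median log2 fold change of 0.80 against -0.02. Nascent Rsad2 had 900.3, 960.3 and 807 CPM in C13 with TDP-43 and 254, 479.5 and 462 CPM in C13 with sham. In DMSO it had 1025, 381 and 1337 CPM with TDP-43 and 434, 143 and 388 CPM with sham. The groups did not overlap in the C13 arm, and in the DMSO arm replicate 2 with TDP-43 lay within the sham range. The log2 fold change was 1.33 (SE 0.39, edgeR adjusted p = 0.999).

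Nascent Isg15 had 366, 519 and 331 CPM in C13 with TDP-43 against 62.5, 149 and 3.97 CPM in C13 with sham, and 182, 158 and 266 CPM in DMSO with TDP-43 against 162, 92.7 and 197 CPM in DMSO with sham. The groups were apart in the C13 arm and overlapped in the DMSO arm. Xaf1, an interferon-induced gene linked to cell death, had 1.67, 104 and 655 CPM with TDP-43 and 0, 15.9 and 78.3 CPM with sham in nascent RNA. Nascent Dtx3l had 63.6, 162 and 344 CPM with TDP-43 and 11.8, 47.8 and 176 CPM with sham. Nascent Cxcl10 was low and spread widely, at 5.02, 30.5 and 181 CPM with TDP-43 and 0.921, 15.3 and 90.7 CPM with sham, and its log2 fold change of 1.00 (SE 1.00) was -0.32 without DMSO with TDP-43 replicate 3. Ifnb1, the gene of interferon beta itself, had 0 reads in all 12 libraries of both tables.

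Genes with the interferon form in their promoter window, whatever their function, were counted as well. In total RNA 240 of them were tested, of which 53 (22.1%) were higher and 66 (27.5%) lower with TDP-43 in both arms, where all tested genes with a window gave 21.9% and 25.3%. Their median log2 fold change was -0.01. Genes with the kB form gave 26% and 28.3% of 127. In nascent RNA 40 of 142 genes with the interferon form (28.2%) were higher and 48 (33.8%) lower, where all tested genes with a window gave 23.1% and 24.9%, and their median log2 fold change was -0.17. The kB form gave 30.3% and 24.7% of 89 nascent genes.

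**Figure D2:**
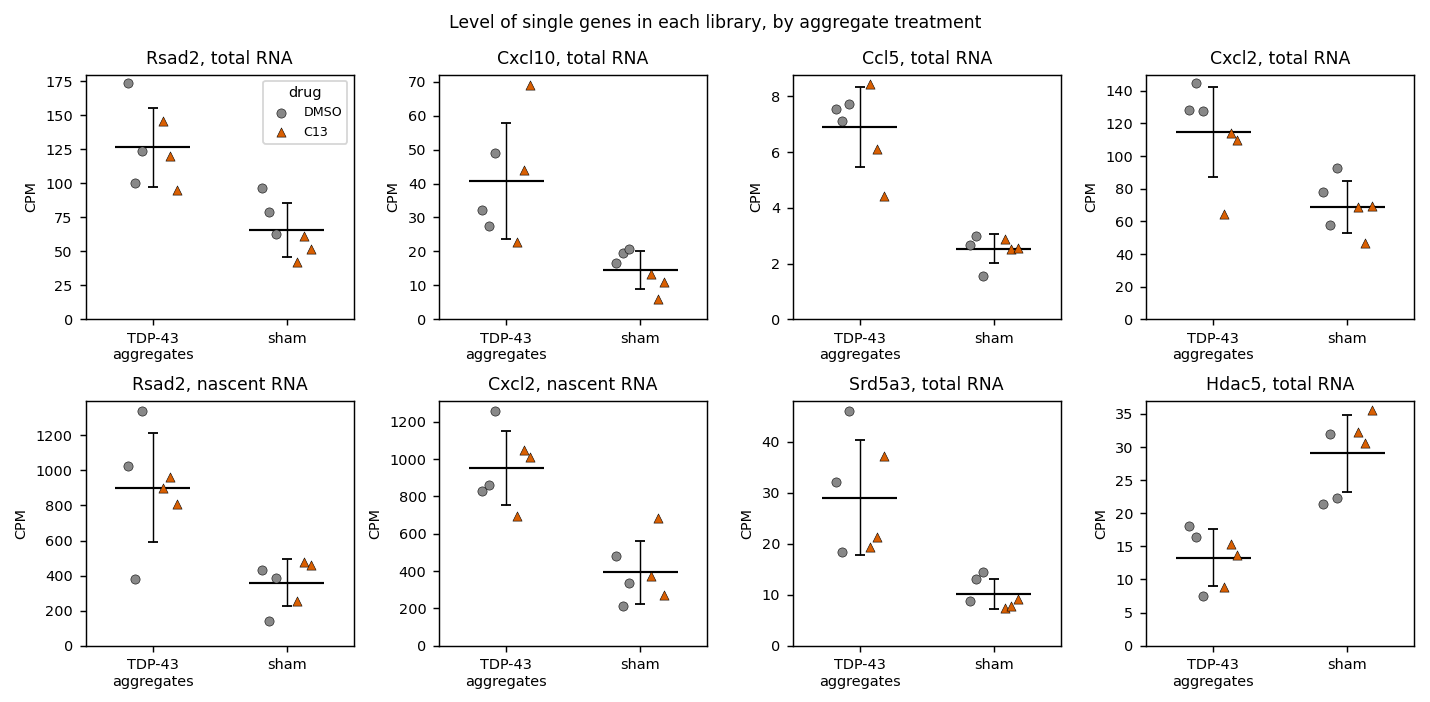
Each point is the CPM of 1 library, circles for DMSO and triangles for C13, with TDP-43 at left and sham at right in each panel, and the line and bar are the mean and SD of 6 libraries. Total Cxcl10, Ccl5 and Srd5a3 and nascent Cxcl2 have all TDP-43 libraries above all sham libraries, total Hdac5 has them all below, and the other panels overlap.

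Chemokine ligands were compared next. In total RNA 7 of 12 tested members (58.3%) were higher with TDP-43 in both arms and 2 (16.7%) lower. All tested genes gave 22.3% and 24.6%. The median log2 fold change of the list was 0.56, and 5 members were higher at an unadjusted p under 0.05, as were 1.75% of all genes. In nascent RNA 7 of 8 were higher in both arms and 0 lower, against 23.6% and 24.1% of all genes, with a median of 0.92. Without DMSO with TDP-43 replicate 3 the nascent list had 5 of 8 higher at a median of 0.41, and without both libraries that stood apart 5 of 8 at 0.40. Cxcl10 is a member of both this list and the interferon list.

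Cxcl2, a chemokine that attracts neutrophils, had the smallest p of the list in nascent RNA. It had 694, 1048 and 1013 CPM in C13 with TDP-43 and 372, 683 and 274 CPM in C13 with sham. With DMSO the values were 829.8, 861 and 1260 CPM with TDP-43 and 483, 212 and 335 CPM with sham. All 6 TDP-43 libraries were above all 6 sham libraries, as in 4 of 7078 nascent genes (0.0565%). All nascent counts of Cxcl2 are multiples of 2. The log2 fold change was 1.29 (SE 0.35, edgeR adjusted p = 0.999), at 1.05 (SE 0.49) in the C13 arm and 1.52 (SE 0.49) in the DMSO arm. Total Cxcl2 had 64.7, 121 and 145 CPM with TDP-43 and 46.8, 69.1 and 92.7 CPM with sham, with overlap and a log2 fold change of 0.73 (SE 0.18).

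Ccl5, a chemokine that attracts T cells and monocytes, was low in total RNA yet apart between the groups. It had 8.44, 6.12 and 4.44 CPM in C13 with TDP-43 and 2.89, 2.52 and 2.57 CPM in C13 with sham. In DMSO it had 7.53, 7.13 and 7.71 CPM with TDP-43 and 2.66, 3.00 and 1.55 CPM with sham. No TDP-43 library reached the sham range, and the log2 fold change was 1.44 (SE 0.37, edgeR adjusted p = 0.998). Ccl4, which activated macrophages secrete, had 16.0, 36.7 and 41.7 CPM with TDP-43 and 13.1, 20.6 and 30.8 CPM with sham in total RNA. Nascent Ccl5 was too low to be tested, at a median of 0.611 CPM with TDP-43 and 0 with sham.

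Among cytokines and inflammatory enzymes, 5 of 13 tested members (38.5%) were higher and 2 (15.4%) lower with TDP-43 in both arms in total RNA. All tested genes gave 22.3% and 24.6% there, and the list had a median log2 fold change of 0.31. In nascent RNA 4 of 5 members were higher and 0 lower, against 23.6% and 24.1% of all genes, at a median of 0.37. Without DMSO with sham replicate 3 the total count was 9 of 14 higher. Acod1, the enzyme that makes itaconate in activated macrophages, had 573, 604 and 653 CPM with TDP-43 and 251, 439 and 507 CPM with sham in total RNA, with no overlap (log2 fold change 0.55, SE 0.16, edgeR adjusted p = 0.998). Il18, an inflammasome cytokine, had lower values with TDP-43, at 12, 23.6 and 38.3 CPM against 21.0, 43.0 and 60.1 CPM with sham, with overlap. Nascent Tnf, which encodes a central inflammatory cytokine, had 1200, 1850 and 2355 CPM with TDP-43 and 379.7, 1427 and 1762 CPM with sham, a log2 fold change of 0.56 (SE 0.37). Total Tnf, Il1b and Nos2 had opposite signs in the arms and are not described.

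The NF-kB list, its subunits, inhibitors and feedback genes, had 11 of 23 members higher (47.8%) and 4 lower (17.4%) with TDP-43 in both arms in total RNA. All tested genes gave 22.3% and 24.6%. The median log2 fold change of the list was only 0.08, and without C13 with sham replicate 2 the count was 7 of 23 higher. Ikbkb, the kinase subunit that releases NF-kB, had 27.8, 29.9 and 38.2 CPM with TDP-43 and 16.6, 20.4 and 30.3 CPM with sham, a log2 fold change of 0.53 in each arm. Traf1, an adaptor of tumour necrosis factor receptors, had 88.6, 103 and 133 CPM with TDP-43 and 67.9, 74.9 and 99.7 CPM with sham. Values of both genes overlapped between the groups. Upstream, receptors, JAK-STAT proteins and interferon regulatory factors had 5 of 22 members higher and 6 lower in total RNA, near the shares of all genes. Toll-like and scavenger receptors had 3 of 24 higher (12.5%, against 22.3% of all genes) and 6 lower. Cytosolic DNA and RNA sensors had 7 of 18 higher (38.9%) and 4 lower (22.2%), at a median log2 fold change of 0.01.

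**Figure D3:**
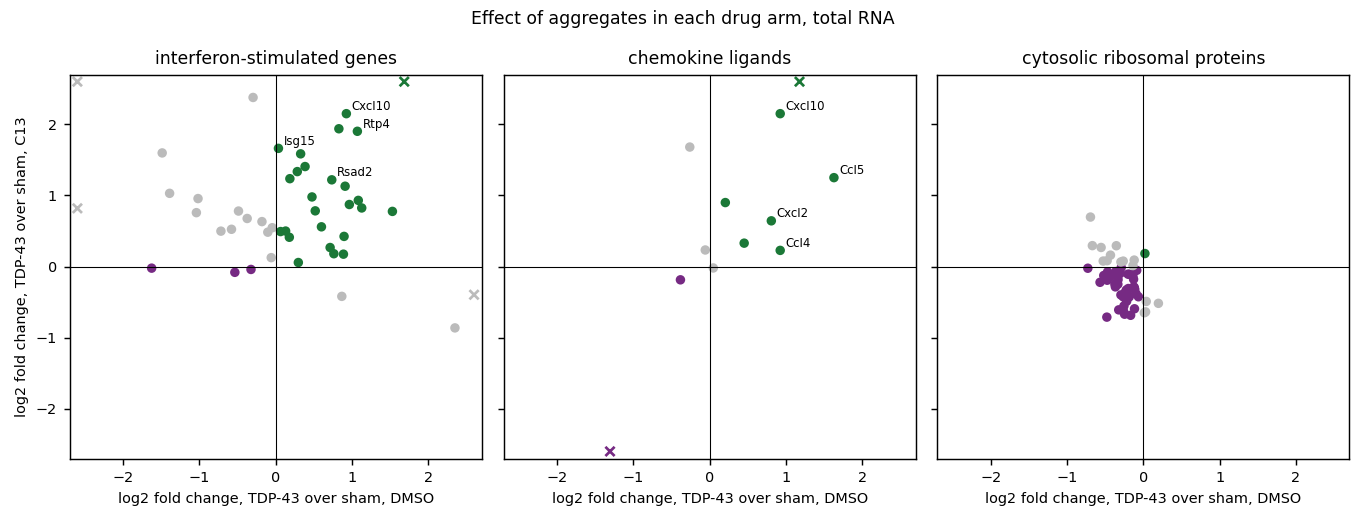
Each point is a tested member of a list in total RNA, with its log2 fold change of TDP-43 over sham in DMSO on the horizontal axis and in C13 on the vertical axis, green where both are positive, purple where both are negative and grey otherwise, and crosses are members beyond 2.6 drawn at the edge. The upper right corner holds 26 of 47 interferon-stimulated genes and 7 of 12 chemokines, and the lower left corner holds 39 of 55 ribosomal protein genes, a count that is 9 of 55 without DMSO with sham replicate 2.

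Genes of TDP-43 itself and related RNA-binding proteins were mostly small in difference. In total RNA 12 of 21 (57.1%) were higher and 4 (19.0%) lower with TDP-43 aggregates in both arms, against 22.3% and 24.6% of all genes. Their median log2 fold change was 0.16. In nascent RNA 3 of 20 (15.0%) were higher and 5 (25.0%) lower, against 23.6% and 24.1% of all genes. Over single libraries left out, 8 to 13 were higher in total RNA and 2 to 6 in nascent RNA. Nascent Tardbp had 566, 1332 and 2229 CPM with TDP-43 and 157, 811 and 1395 CPM with sham (log2 fold change 0.84, SE 0.43, edgeR adjusted p = 0.999). The arms differed in sign for total Tardbp. Hnrnpa3, a splicing regulator, had 752, 965 and 1061 CPM with TDP-43 and 578, 813 and 974 CPM with sham in total RNA. At an unadjusted p under 0.05 in total RNA, 0 members of this list were higher and 2 lower in both arms. All tested genes gave 1.75% and 1.89%.

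Cytosolic ribosomal protein genes were the list with most members on the lower side. In total RNA 39 of 55 were lower with TDP-43 in both arms and 1 higher, against 24.6% and 22.3% of all genes, at a median log2 fold change of -0.25, and 1 was at an unadjusted p under 0.05. This count rested on single libraries. Without DMSO with sham replicate 2 it was 9 of 55 lower and 3 higher, at a median of -0.089, and it was 22 of 55 lower both without replicate 3 of the C13 arm with TDP-43 and without replicate 2 of its sham group. Rps14, a protein of the small subunit, had 899, 1095 and 1698 CPM with TDP-43 and 1565, 2778 and 5980 CPM with sham in nascent RNA, where 2 DMSO libraries with TDP-43 lay within the sham range and the groups did not overlap in the C13 arm. Its log2 fold change was -1.40 (SE 0.34, edgeR adjusted p = 0.999), and all its counts are multiples of 5. In nascent RNA 24 of 53 members were lower in both arms and 6 higher, where all tested genes gave 24.1% and 23.6%. Without DMSO with sham replicate 2 the counts were 13 lower and 12 higher. The summed nascent level of the list was 17715, 21430 and 27246 CPM with TDP-43 and 21295, 26697 and 35129 CPM with sham. Without the 2 libraries that stood apart, 44 of 55 members were lower in both arms in total RNA.

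**Figure D4:**
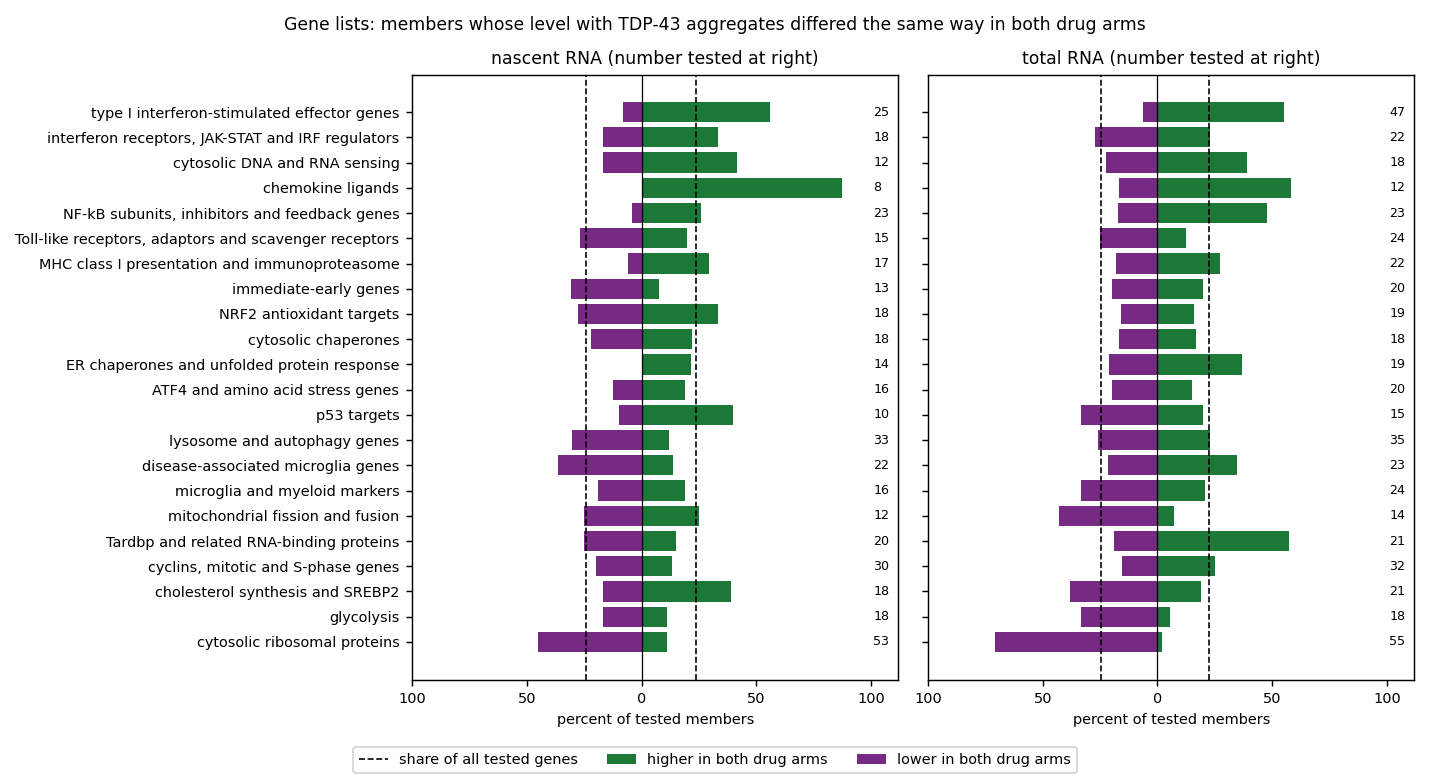
Bars give the percent of tested members of 22 gene lists with at least 8 tested members in each table that were higher (right, green) or lower (left, purple) with TDP-43 in both drug arms, and dashed lines give the same share of all tested genes. In both tables the bars of interferon-stimulated genes, chemokines, NF-kB genes, interferon receptors and regulators, nucleic acid sensors and MHC class I genes pass the line on the right. Those of ribosomal proteins, pattern receptors, lysosome genes and mitochondrial fission and fusion genes pass it on the left. Several lie near the line. In total RNA interferon receptors and regulators were 22.7% against 22.3% higher, and pattern receptors 25.0% and lysosome genes 25.7% against 24.6% lower. In nascent RNA NF-kB genes were 26.1% against 23.6% higher, and fission and fusion genes 25.0% against 24.1% lower.

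Outside these lists, Srd5a3 had the smallest p of total RNA. It encodes polyprenol reductase, which makes the dolichol that carries sugars for protein glycosylation. It had 19.3, 21.2 and 37.1 CPM in C13 with TDP-43 and 7.39, 7.76 and 9.19 CPM in C13 with sham. In DMSO it had 32.1, 18.3 and 46.0 CPM with TDP-43 and 8.71, 13 and 14.4 CPM with sham. All 6 TDP-43 libraries were above all 6 sham libraries (log2 fold change 1.54, SE 0.27, edgeR adjusted p = 0.327).

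Other genes higher with TDP-43 in total RNA were of mixed function. Ankle1, a nuclease with ankyrin repeats, had 8.71, 14.7 and 18.6 CPM with TDP-43 and 3.33, 5.11 and 7.66 CPM with sham, with no overlap and a log2 fold change of 1.37 (SE 0.33). Trmt61a, the catalytic subunit of a tRNA methyltransferase, had 55.7, 80.0 and 91.5 CPM with TDP-43 and 22.4, 33.4 and 65.2 CPM with sham, at 1.01 (SE 0.25). Oard1, which removes ADP-ribose from proteins, had 19.1, 30.0 and 43.5 CPM with TDP-43 and 10.3, 16.9 and 24.0 CPM with sham. Nras, a small GTPase, had 227, 317 and 386 CPM with TDP-43 and 138, 196 and 251 CPM with sham. The last 3 genes overlapped between the groups. The total counts of Trmt61a are multiples of 2.

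On the lower side of total RNA stood Hdac5, a histone deacetylase that shuttles between nucleus and cytoplasm. It had 8.84, 15.3 and 13.7 CPM in C13 with TDP-43 and 32.3, 30.6 and 35.6 CPM in C13 with sham. In DMSO it had 18.1, 16.4 and 7.55 CPM with TDP-43 and 21.4, 31.9 and 22.4 CPM with sham. All 6 TDP-43 libraries were below all 6 sham libraries, as in 18 of 11827 genes (0.152%), and the log2 fold change was -1.11 (SE 0.26, edgeR adjusted p = 0.998). The counts of Hdac5 are multiples of 4, and the gene overlaps another on its strand.

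Fahd1, a mitochondrial oxaloacetate decarboxylase, had 5.50, 6.62 and 8.38 CPM with TDP-43 and 9.01, 12.4 and 20 CPM with sham. Fbxw8, an F-box subunit of a ubiquitin ligase, had 16.5, 25.6 and 29.1 CPM with TDP-43 and 30.1, 40.4 and 44.7 CPM with sham. Cenpl, a centromere protein, had 16.0, 26.4 and 28.4 CPM with TDP-43 and 34.4, 37.1 and 41.6 CPM with sham. None of these 3 overlapped between the groups. Foxo3, a transcription factor of stress resistance, had 3.58, 5.37 and 9.63 CPM with TDP-43 and 6.89, 15.1 and 21.7 CPM with sham, and Mrtfa, an actin-regulated coactivator, had 199.8, 232 and 279.6 CPM with TDP-43 and 278, 344 and 437 CPM with sham, both with overlap. The total counts of Mrtfa are multiples of 5.

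In nascent RNA other genes with the smallest p were again mixed. Traf4, an adaptor of the TRAF family, had 1.21, 2.44 and 13.7 CPM with TDP-43 and 19.0, 33.8 and 105 CPM with sham, with no overlap, and its log2 fold change was -3.22 (SE 0.94, edgeR adjusted p = 0.999). Ddx39b, an RNA helicase of mRNA export, had 23.1, 54.1 and 70.3 CPM with TDP-43 and 95.2, 166 and 234 CPM with sham, also with no overlap, though it shares its strand with 4 overlapping annotated genes. Both are among the 11 nascent genes of 7078 (0.155%) with all TDP-43 libraries below all sham libraries. All nascent counts of Ddx39b are multiples of 3.

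Further genes had lower nascent values with TDP-43. Atp6v0e, a subunit of the vacuolar proton pump, had 55.6, 79.2 and 162 CPM with TDP-43 and 92.0, 334 and 500.4 CPM with sham, and Atp5o, a subunit of mitochondrial ATP synthase, had 55.9, 75.8 and 106 CPM with TDP-43 and 103, 223 and 494 CPM with sham. Phgdh, the first enzyme of serine synthesis, had 34.7, 71.5 and 116 CPM with TDP-43 and 88.2, 162 and 386 CPM with sham. These 3 overlapped between the groups. On the higher side, Psma7, a proteasome subunit, had 206, 356 and 747 CPM with TDP-43 and 137, 157 and 286 CPM with sham, and Kbtbd2, an adaptor of a cullin ubiquitin ligase, had 162, 299.7 and 921 CPM with TDP-43 and 44.0, 72.0 and 402 CPM with sham, both with overlap. The nascent counts of Kbtbd2 are multiples of 2.

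The stress lists had no common direction in total RNA, where all tested genes gave 22.3% higher and 24.6% lower. Cytosolic chaperones had 3 of 18 members higher and 3 lower with TDP-43 in both arms, NRF2 antioxidant targets 3 of 19 and 3, ATF4 targets 3 of 20 and 4, and p53 targets 3 of 15 and 5. Chaperones and sensors of the endoplasmic reticulum had 7 of 19 higher and 4 lower (36.8% and 21.1%). Nascent Hmox1, the NRF2 target that degrades heme, had 738, 1419 and 3136 CPM with TDP-43 and 526, 1006 and 2805 CPM with sham, a log2 fold change of 0.33 (SE 0.34).

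The amount of new RNA was compared as the share of reads that were nascent. It was 2.13%, 2.90% and 3.35% with TDP-43 and 1.88%, 3.03% and 7.11% with sham. The means were 2.84% ± 0.480 with TDP-43 and 3.53% ± 1.83 with sham (SD, n = 6 each), a difference of -0.694 percentage points with p = 0.52 over the 400 arrangements of labels within each drug (two-sided exact permutation test). TMM scaling sets such a global difference aside. With the total table's library sizes all nascent genes had a median log2 fold change of -0.25, against -0.02 with TMM, and the interferon and chemokine lists then had 11 of 25 and 4 of 8 members higher in both arms, with medians of 0.61 and 0.37. The cytokine list had 1 of 5 and the NF-kB list 3 of 23 members higher with those sizes, against 4 and 6 with TMM.

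Whether aggregates acted differently under C13 than under DMSO was tested as an interaction. In edgeR 0 genes passed in nascent RNA and 0 in total RNA, while an unadjusted p under 0.05 was reached by 537 nascent and 941 total genes, where chance gives 353.9 and 591.35, and no DESeq2 fit of it was made. The larger C13 values of total Cxcl10 and Isg15 are thus not shown to differ from those in DMSO. The 2 libraries that stood apart lie in opposite drug arms and opposite aggregate groups, so a deviation they share falls on the interaction. Their part in the number of interaction genes at an unadjusted p under 0.05 was not tested.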

How the data were processed

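RNA of 12 cultures was treated with iodoacetamide after the 4-thiouridine pulse and made into libraries of mRNA 3′ ends, per the labels' protocols. Raw counts for 30994 Ensembl genes were deposited as a nascent and a total table. The build was GRCm38 (the submitters' processing notes). For the aligner, counter, strand setting and the rule that sorts nascent from other reads: not given in the sources used here. Reads mark 3′ ends, so no gene length correction was made, and levels are compared within genes. Symbols came from a GENCODE annotation of GRCm38, which matched 30922 identifiers.

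Genes were kept by filterByExpr over the 4 groups, scaled by TMM within each table and fitted with drug and aggregate as additive terms in edgeR 4.0.16 (quasi-likelihood test, R 4.3.3). Effects within an arm came from a fit of 4 group means. Benjamini-Hochberg adjustment ran over all tested genes of a table, with 0.05 as the threshold. The interaction, and a fit of nascent against other reads with the library as a term, were tested likewise. The nascent share of reads was tested by exact permutation within the drug arms. The test was also run on simulated counts, drawn independently around the mean of each gene with no drug effect. Those counts held no library that stood apart and no shared factors, so they do not cover these features of the data. Replicates of a group differed by a chi-square of at least 70.5 per degree of freedom, so that no library was a repeat of another of its group. Libraries of different groups were not compared in this way.

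The members and the 31 gene lists were chosen with earlier results of these data known, so the counts of list members are descriptions. Genes named were those called, up to 12 per table and direction with the smallest p (mean of the higher group 20 reads or more), up to 4 members of each list, and Cxcl10, Rsad2, Isg15, Irf7, Ccl5, Cxcl2, Ccl4, Tnf, Il1b, Il6, Ifnb1, Nos2, Hmox1, Tardbp, Mok and Mff; those at or near 0 reads are mostly passed over. Alternatives were DESeq2 1.42.0 and its size factors, no filter, the 4 group means, a replicate block, the total table's library sizes for nascent counts, leaving out each library and leaving out the 2 that stood apart. Dividing each gene by the largest factor shared by all its counts was added after seeing the data: 1881 of 7019 nascent genes with reads in 6 or more libraries (26.8%) and 2114 of 11491 total genes (18.4%) had such a factor. No reason for it is given in the sources used here.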

Additional observations from a re-analysis of the deposited data

Results flagged for a closer look

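Values of 8 single libraries lay far from the other 5 of their aggregate group, out of 94 groups examined, where chance gives about 1 in 20. The nascent share of reads was 7.11% in DMSO with sham replicate 2, with the other sham libraries at 1.88% to 3.40%. In DMSO with TDP-43 replicate 3, 1 of the 2 libraries that stood apart, nascent Xaf1 had 655 CPM where the others had 1.67 to 199 CPM, and nascent Cxcl10 had 181 CPM where the others had 5.02 to 48.3 CPM. In DMSO with sham replicate 1, nascent Cxcl10 had 90.7 CPM against 0.921 to 23.7 CPM, and nascent Kbtbd2 had 402 CPM against 44.0 to 137 CPM. Nascent Dtx3l had 176 CPM in DMSO with sham replicate 3, with the others at 11.8 to 52.0 CPM. Nascent Psma7 had 286 CPM in DMSO with sham replicate 2, with the others at 137 to 161 CPM. Total Ccl5 had 1.55 CPM in DMSO with sham replicate 3, below the 2.52 to 3.00 CPM of the others.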

How the results depend on the processing

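The main counts were 1 nascent gene called and 0 total genes, with 126 nascent genes higher and 123 lower and 207 total genes higher and 224 lower at an unadjusted p under 0.05. Without the filter on low counts, where edgeR tests many more genes at or near 0 reads, these became 11 and 20 called, 299 and 275 nascent and 426 and 408 total genes. The genes then called included Mff and Rps14 in nascent RNA and Cxcl10, Srd5a3, Rsad2 and Trmt61a in total RNA, which the main fits also tested. Without the filter the interaction called 38 nascent and 124 total genes, and the fit of nascent against other reads called 4. DESeq2 gave 253 higher and 203 lower nascent genes and 3 called total genes. The 4 group means gave 194 higher nascent genes, and the total table's library sizes gave 35 higher and 0 called. Dividing by shared factors left 0 nascent genes called and 2 total genes in the interaction. Without both libraries that stood apart, 318 total genes were higher. Whether the replicate numbers pair the samples was not settled. Deviations of same-numbered libraries correlated at -0.03 to 0.06 (median 0.01) in nascent and -0.03 to 0.13 (median 0.02) in total RNA. Those of libraries with other numbers correlated at -0.05 to 0.05 (median -0.01) and -0.17 to 0.13 (median -0.01). The replicate block gave 0 nascent genes called and 2 total genes in the interaction, and left the difference in nascent share at -0.694 points (exact permutation p = 0.344). Leaving out each library in turn gave 0 to 1 nascent and 0 to 0 total genes called, 127 to 185 nascent genes higher and 99 to 196 lower, 176 to 381 total genes higher and 184 to 306 lower. It gave 0 to 1 nascent and 0 to 3 total genes in the interaction, 0 to 1 genes in the fit of nascent against other reads, and a difference in nascent share of -1.11 to -0.0218 points. Nascent Cxcl10 turned to -0.80 without both libraries that stood apart, and ran from -0.32 to 1.85 over single libraries left out. Total Mff ran from -0.089 to 0.061. Of 891 alternatives for 46 results on single genes, 857 kept their direction and side of the threshold and 7 changed sign. A further 19 of Mff lost the call and 8 of other genes gained one, and the causes were not tested. Only Mff was called in the main fits, so for the other genes keeping the side of the threshold says little. Libraries held as few as 552042 nascent reads, and the part of depth in these results was not tested.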
